A study of Danio rerio with 12 samples.

Results

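The arrays described here are the 6 of 12 in which the brain aromatase gene cyp19a1b, an estrogen-responsive gene, gave a signal above 150. They were set against each other by the signal of cyp1a, the classical target gene of the aryl hydrocarbon receptor (AHR). The 3 cyp1a-high arrays, above 5000, carry the titles E2+TCDD 1, E2 3 and E2+TCDD 3. The 3 cyp1a-low arrays, below 5000, carry the titles E2 1, DMSO 3 and TCDD 3. Each array was hybridised with total RNA from a pool of about 30 whole wild-type zebrafish larvae that were frozen at 96 hours post fertilisation (hpf), after chemicals dissolved in dimethylsulfoxide (DMSO) had been added to the medium between 72 and 96 hpf. The labels give 4 exposures with 3 arrays each, namely E2+TCDD (0.1 µM 17beta-estradiol and 1 nM 2,3,7,8-tetrachlorodibenzo-p-dioxin), E2 (0.1 µM), TCDD (1 nM) and the solvent DMSO. The series asks for unique and overlapping responses to the estrogen and the dioxin.

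The titles disagree with the markers. Of the 6 cyp19a1b-high arrays, 2 have no E2 in their title (DMSO 3 and TCDD 3), the array titled TCDD 3 was cyp1a-low, and the array titled E2 3 was cyp1a-high, so that 3 titles went against at least 1 marker. The presence of TCDD in the title matched the cyp1a state in 4 of the 6 arrays. The comparison therefore sorts arrays by measured expression and tests none of the labelled exposures, and the arrays are called cyp1a-high and cyp1a-low throughout. Whether titles, samples or exposures were exchanged was not tested.

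Each array's description also holds a number and a letter, whose meaning the labels do not state. The arrays fall into 3 pairs of 1 cyp1a-high and 1 cyp1a-low array by letter and number range. The letter C pair is E2+TCDD 1 against E2 1. The first letter B pair is E2 3 against DMSO 3, and it carries the same numbers as the letter C pair. The second letter B pair is E2+TCDD 3 against TCDD 3, with numbers of a higher range. In each pair the cyp1a-high array carries the higher number, so number order and cyp1a state cannot be told apart. Arrays with the same number may hold the same RNA, so the first letter B pair may not be independent of the letter C pair. In the letter C pair the titles and both markers agree: both titles hold E2, and TCDD stands in the title of the cyp1a-high array alone.

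The AHR is a transcription factor held in the cytoplasm that binds dioxins and related planar chemicals, moves to the nucleus, pairs with ARNT and switches on genes for oxidation and conjugation of foreign compounds, cyp1a first among them. In zebrafish larvae ahr2 carries most of the response to TCDD, which is known for reduced jaw cartilage growth, cardiac malformation and poor circulation. Estrogen receptors drive cyp19a1b in radial glial cells of the brain.

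Both marker signals are given as a description of the choice of arrays, with no test. The cyp1a signal (MAS5 signal, an intensity on a linear scale) was 23173.2, 21650.5 and 21509.5 in the cyp1a-high arrays titled E2+TCDD 1, E2 3 and E2+TCDD 3, against 414.7, 413.4 and 263.9 in the cyp1a-low arrays titled E2 1, DMSO 3 and TCDD 3. Values of single arrays are given in this order of titles from here on. No array lay near the threshold of 5000, the nearest being 21509.5 above it and 414.7 below it. The cyp19a1b signal was 255.9, 267.1 and 256.4 in the cyp1a-high arrays, against 296.5, 287.0 and 256.9 in the cyp1a-low arrays. The nearest array outside the threshold of 150 gave 70.1, and the 6 cyp19a1b-low arrays spanned 36.1 to 70.1. A probe set that the annotation gives to mpx, the neutrophil myeloperoxidase gene, carries the same cluster number in its name as the cyp1a probe set, and it was set aside with the 2 marker probe sets. It read 800.3, 929.2 and 825.7 in the cyp1a-high arrays, against 33.5, 25.8 and 29.7 in the cyp1a-low arrays.

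The cyp1a-high and cyp1a-low arrays differed in a small set of probe sets. Among named genes, those of xenobiotic metabolism led the rises, and 1 keratin gene and the cartilage transcription factor gene sox9b led the falls. Of 11623 probe sets, 105 passed (limma with the pair as a block, Benjamini-Hochberg adjusted p under 0.05), or 0.903%. There were 77 that rose in the cyp1a-high arrays (0.662%) and 28 that fell (0.241%). The split between directions rested on the second letter B pair: without TCDD 3 there were 73 rises and 65 falls, and without E2+TCDD 3 there were 73 rises and 72 falls. With the pair as a block, leaving out 1 array takes the difference of its whole pair out of the estimate. Here and below, fits without either partner of a pair are therefore not separate checks. The 105 name 55 genes that rose and 22 that fell, and 20 of the 105 carried no symbol or several. The largest rises among these 20 were log2 differences of 2.57 (limma adjusted p = 2.11e-06) and 2.41 (limma adjusted p = 0.000657). Both exceeded the rise of every named gene but cyp1c1. The median log2 difference over all 11623 was -0.01. Rises had a median log2 difference of 0.66, and 13 of them exceeded 1. Falls had a median of -0.63, and 2 of them exceeded 1 in size. All 105 had the same sign in the 3 pairs, where 13.9% of all probe sets were higher and 17.4% lower in all 3. In 87 of the 105 the signals of the cyp1a-high and cyp1a-low arrays did not overlap, while 3.78% of all probe sets were higher and 3.97% lower without overlap. Each p-value sets the mean difference against the disagreement between the pairs, moderated by a variance trend across probe sets. It does not measure the full spread between arrays of pooled larvae. If arrays with the same number hold the same RNA, part of that disagreement is technical. With arrays of the same number averaged, a fit on fewer pairs, 128 probe sets passed, 96 of them among the 105. Without the variance trend 12 passed, all of them among the 105, and with no filter on dim probe sets 67 passed. Most of the 105 calls thus depend on the variance trend. Nothing in the labels says that the pools came from separate spawnings.

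The sizes in each pair are given for the 105 alone, and the test with pairs as a block favours probe sets whose pairs agree. Over all probe sets, the differences in any 2 pairs had Pearson correlations of 0.236 (letter C and first letter B pair), 0.193 (letter C and second letter B pair) and 0.234 (both letter B pairs), a description across probe sets. The median log2 difference of the rises was 0.65 in the letter C pair, 0.56 in the first letter B pair and 0.78 in the second. For the falls it was -0.67, -0.62 and -0.69 in the same order. The array titled TCDD 3 was the lowest of the cyp1a-low arrays in 53 of the 77 rises, and the array titled E2+TCDD 1 was the highest of the cyp1a-high arrays in 49. The array titled E2+TCDD 3, paired with TCDD 3, was the lowest of the cyp1a-high arrays in 37. How often each array was the lowest or highest of its group over all probe sets was not counted, so these counts do not show a trait of the rises.

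Among AHR receptor and target genes, 2 rose and none fell of the 5 that were tested apart from cyp1a itself. That is 40%, where 0.903% of all probe sets passed. The list held 22 genes, of which 8 had a probe set, and ahr1a and cyp1d1 were too dim to be tested. The median log2 difference of the 5 was 0.46, against -0.01 over all probe sets. The cytochrome P450 gene cyp1c1, a relative of cyp1a, had signals of 2560.2, 3222.5 and 3014.5 in the cyp1a-high arrays, against 93.2, 94.4 and 78.2 in the cyp1a-low arrays. The groups were far apart in every pair. The fold change was 28.1 (log2 difference 4.81, SE 0.11, limma adjusted p = 3.95e-10), and the other probe set of cyp1c1 gave a log2 difference of 4.06. The gene tiparp, whose product ADP-ribosylates the AHR and limits its activity, read 1246.4, 1201.8 and 1054.5 in the cyp1a-high arrays, against 453.9, 462.3 and 481.9 in the cyp1a-low arrays. These signals did not overlap, and the rise was 2.45-fold (log2 1.29, SE 0.10, limma adjusted p = 3.3e-05).

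The receptor gene ahr2 did not pass. Its signal was 817.7, 1015.7 and 1091.4 in the cyp1a-high arrays, against 912.1, 639.8 and 590.3 in the cyp1a-low arrays. The groups overlapped, because the array titled E2 1 read higher than the array titled E2+TCDD 1 with which it is paired. The log2 difference was 0.46 (SE 0.16, limma adjusted p = 0.337), being -0.15 in the letter C pair and 0.65 and 0.87 in the letter B pairs. Without the array titled E2 1 it was 0.76 with an adjusted p of 0.000942, and without E2+TCDD 1 it was 0.76 with an adjusted p of 0.00105. Both estimates rest on the letter B pairs alone. The partner gene arnt2 (0.07, adjusted p = 0.941) and the transporter gene slc16a9b (-0.15, adjusted p = 0.773) did not pass either.

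Other genes of xenobiotic metabolism moved in a few members. Of 16 tested, cyp3a65, sult6b1 and cyb5a rose and none fell (18.8%, where 0.903% of all probe sets passed), with a list median of 0.03. The cytochrome P450 gene cyp3a65 read 2822.2, 2015.2 and 1927.8 in the cyp1a-high arrays, against 814.6, 527.4 and 162.6 in the cyp1a-low arrays. No array of one group reached the other, although the array titled TCDD 3 was far below its group. The rise was 5.18-fold (log2 2.37, SE 0.24, limma adjusted p = 0.000679), with pair values of 1.77, 1.90 and 3.44. The sulfotransferase gene sult6b1 read 5430.3, 4904.4 and 4982.4 in the cyp1a-high arrays, against 1314.2, 1490.0 and 940.7 in the cyp1a-low arrays. Each cyp1a-high array was above every cyp1a-low array, and the fold change was 4.12 (log2 2.04, SE 0.11, limma adjusted p = 2.11e-06). The gene cyb5a encodes cytochrome b5, an electron donor to P450 enzymes, and read 3542.7, 4534.1 and 4405.6 in the cyp1a-high arrays, against 1588.8, 1937.4 and 1172.4 in the cyp1a-low arrays. It rose 2.68-fold without overlap (log2 1.42, SE 0.12, limma adjusted p = 0.000188). The other members included sult1st1 (0.49, adjusted p = 0.247), gsto1 (0.32) and gstm.1 (-0.26), none of which passed.

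**Figure D1:**
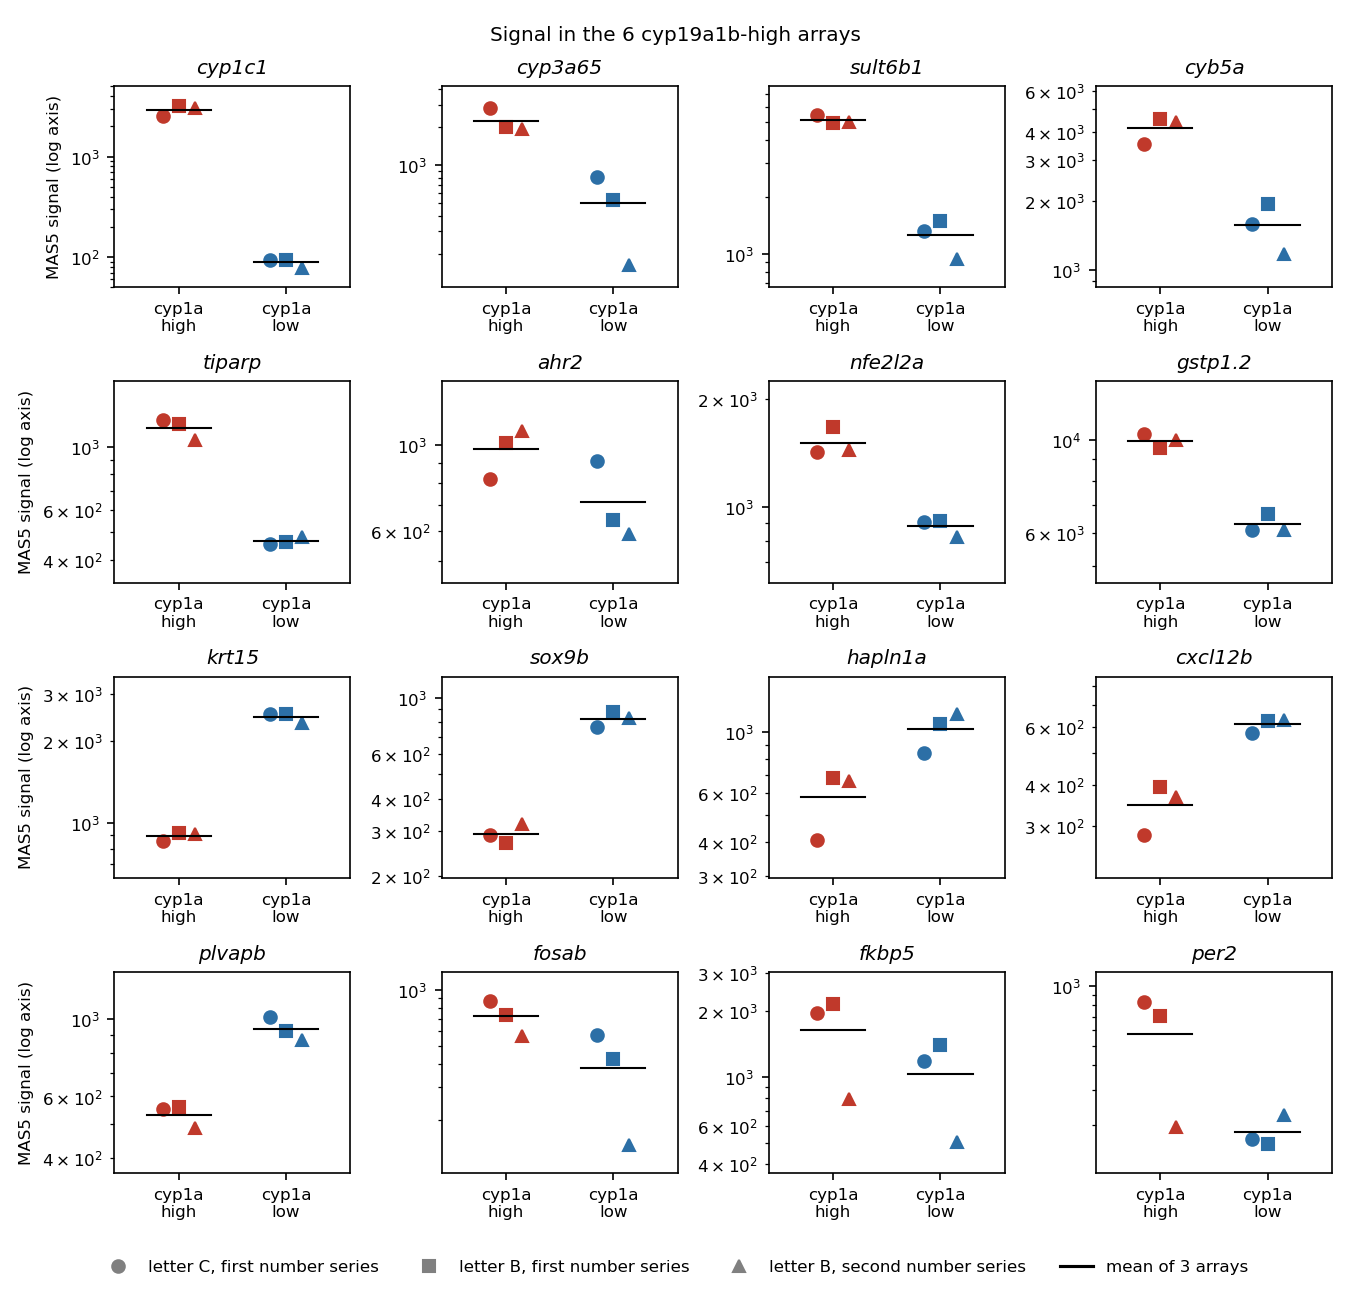
MAS5 signal (log axis) of 16 genes in the 6 cyp19a1b-high arrays, cyp1a-high on the left and cyp1a-low on the right, with 1 marker shape per pair and a line at the mean of the 3 arrays. For cyp1c1, sult6b1 and tiparp all cyp1a-high arrays lie above the cyp1a-low arrays and for krt15 and sox9b all lie below, while ahr2, fosab, fkbp5 and per2 overlap.

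The NRF2 pathway, which turns on glutathione synthesis and antioxidant enzymes, had 4 genes that rose and none that fell of 23 tested. That is 17.4%, where 0.903% of all probe sets passed, and the list median was 0.17. The gene nfe2l2a, which encodes NRF2 itself, read 1428.5, 1668.4 and 1439.2 in the cyp1a-high arrays, against 909.6, 913.0 and 825.6 in the cyp1a-low arrays. The groups did not overlap, and the log2 difference was 0.76 (SE 0.08, limma adjusted p = 0.00112). A second, dimmer probe set of nfe2l2a gave 0.58 and did not pass. The glutathione transferase gene gstp1.2 read 10349.1, 9571.2 and 9986.8 in the cyp1a-high arrays, against 6097.3, 6669.1 and 6088.8 in the cyp1a-low arrays. It too rose without overlap (log2 0.66, SE 0.08, limma adjusted p = 0.00171).

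The other 2 NRF2 genes rose less. The gene gclm, the modifier subunit of the first enzyme of glutathione synthesis, read 662.0, 715.0 and 714.5 in the cyp1a-high arrays, against 495.0, 529.8 and 409.7 in the cyp1a-low arrays (log2 0.54, SE 0.10, limma adjusted p = 0.0376). Its groups did not overlap, but it missed the threshold without the array titled TCDD 3 (log2 0.41, adjusted p = 0.131) or without E2+TCDD 3 (adjusted p = 0.148). The peroxiredoxin gene prdx1 rose in all 3 of its probe sets (log2 0.48, 0.52 and 0.69). The probe set with 0.48 (SE 0.09, limma adjusted p = 0.0389) missed the threshold when E2 1, E2+TCDD 1, TCDD 3 or E2+TCDD 3 was left out, with log2 differences of 0.45 without either letter C array and 0.39 without either array of the second letter B pair. The genes gsr (0.41, adjusted p = 0.342), pgd (0.36, adjusted p = 0.0716) and txnb (0.33, adjusted p = 0.121) did not pass. The gene gsr gave 0.62 and passed when either letter C array was left out.

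Several further rises lay outside these lists or in smaller enzyme groups. The gene mao, encoding monoamine oxidase, which breaks down amine neurotransmitters, read 1420.6, 1108.2 and 1028.5 in the cyp1a-high arrays, against 691.3, 690.6 and 453.2 in the cyp1a-low arrays (log2 0.95, SE 0.10, limma adjusted p = 0.00112). The gene nt5c2l1, a member of the cytosolic 5'-nucleotidase family, read 285.0, 282.9 and 349.0 in the cyp1a-high arrays, against 119.9, 130.9 and 183.6 in the cyp1a-low arrays (log2 1.01, SE 0.13, limma adjusted p = 0.00241). Neither gene's groups overlapped. The small heat shock protein gene hspb6 read 447.9, 310.7 and 327.1 in the cyp1a-high arrays, against 281.2, 188.8 and 98.5 in the cyp1a-low arrays (log2 0.97, SE 0.17, limma adjusted p = 0.0275), again without overlap.

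The following genes passed but were chosen for mention after their values were seen. The gene ugdh, whose enzyme makes the UDP-glucuronate used in glucuronidation, rose by a log2 difference of 0.63 (SE 0.10, limma adjusted p = 0.0162), while its second probe set gave 0.17 and did not pass. The gene alas1, the first enzyme of heme synthesis, rose by 0.58 (SE 0.09, adjusted p = 0.00758). Its signals were 6735.7, 5995.1 and 6061.8 in the cyp1a-high arrays, against 4788.2, 4366.4 and 3483.7 in the cyp1a-low arrays, with no overlap. The steroid reductase gene srd5a2a rose by 0.68 (SE 0.11, adjusted p = 0.0142), and a second probe set gave 0.70 with an adjusted p of 0.245. Both passing probe sets of pygl, the liver glycogen phosphorylase gene, rose by 0.60 and 0.61, and another gave 0.29 and did not pass.

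The fall of sox9b was as large as that of any named gene. This gene encodes a transcription factor needed for jaw cartilage in zebrafish. It read 288.9, 269.9 and 318.6 in the cyp1a-high arrays, against 765.9, 875.7 and 829.6 in the cyp1a-low arrays. The groups were well apart, and the level in cyp1a-high arrays was 0.367 times that in cyp1a-low arrays (log2 -1.45, SE 0.10, limma adjusted p = 2.59e-05), with pair values of -1.36, -1.64 and -1.34. Whole larvae were measured, so fewer cells of a type and less RNA per cell cannot be told apart for this gene or any other.

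Of 14 cartilage and bone genes tested, sox9b and hapln1a fell and none rose (14.3%, where 0.903% of all probe sets passed). A negative difference was seen in 11 of the 14, and the list median was -0.11, against -0.01 over all probe sets. How many of all probe sets were negative in the cyp19a1b-high arrays was not counted. The gene hapln1a encodes a link protein of hyaluronan-rich matrix and read 403.9, 678.3 and 665.0 in the cyp1a-high arrays, against 835.9, 1073.0 and 1159.4 in the cyp1a-low arrays. The groups did not overlap, and the log2 difference was -0.82 (SE 0.10, limma adjusted p = 0.00171). Its other probe sets gave -0.91 (adjusted p = 0.0505) and -0.55 (adjusted p = 0.289). The genes of mature cartilage matrix did not pass, among them col2a1a (-0.06), col9a3 (-0.23), col11a2 (-0.31) and matn1 (-0.23, adjusted p = 0.408). The summed signal of the list spanned 38409 to 45091 in the cyp1a-high arrays and 41464 to 49138 in the cyp1a-low arrays.

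The fall with the smallest adjusted p was that of the keratin gene krt15. It read 854.5, 916.8 and 905.3 in the cyp1a-high arrays, against 2517.8, 2530.9 and 2347.6 in the cyp1a-low arrays. The spread within each group was small beside the gap between them, and the level in cyp1a-high arrays was 0.366 times that in cyp1a-low arrays (log2 -1.45, SE 0.08, limma adjusted p = 2.18e-06). A second keratin gene, krt94, read 620.8, 638.9 and 584.4 in the cyp1a-high arrays, against 1240.2, 1234.6 and 952.7 in the cyp1a-low arrays (log2 -0.87, SE 0.09, limma adjusted p = 0.000944). These were the 2 that passed of 19 skin and keratin genes (10.5%, where 0.903% of all probe sets passed). Both lay in the negative direction, and the list median was -0.07. The list's summed signal was 95629 to 100955 in the cyp1a-high arrays and 100832 to 102564 in the cyp1a-low arrays. Members that did not pass included krt91 (-0.21), agr2 (0.18) and icn (0.16).

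The epithelial transcription factor gene elf3 also fell, with signals of 318.4, 351.8 and 216.6 in the cyp1a-high arrays, against 535.4, 533.0 and 331.7 in the cyp1a-low arrays (log2 -0.63, SE 0.10, limma adjusted p = 0.0173). Its groups overlapped across pairs, because both arrays of the second letter B pair read low, while each pair differed in the same direction. The gene irg1l, related to a mammalian gene for itaconate synthesis, behaved in the same way. It read 522.0, 581.1 and 183.3 in the cyp1a-high arrays, against 676.6, 980.8 and 273.7 in the cyp1a-low arrays (log2 -0.55, limma adjusted p = 0.0364), and it missed the threshold without DMSO 3 (-0.45, adjusted p = 0.227) or E2 3 (adjusted p = 0.201). The gene zgc:111983, which has no name beyond its clone, read 200.0, 710.0 and 208.4 in the cyp1a-high arrays, against 470.3, 890.2 and 456.0 in the cyp1a-low arrays (log2 -0.85, SE 0.15, limma adjusted p = 0.0246), with both arrays of the first letter B pair far above the other arrays of their groups.

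The chemokine genes cxcl12a and cxcl12b, which encode ligands that guide migrating cells, both fell. The gene cxcl12b read 282.7, 394.9 and 368.5 in the cyp1a-high arrays, against 578.0, 628.3 and 631.4 in the cyp1a-low arrays (log2 -0.80, SE 0.11, limma adjusted p = 0.00367). The gene cxcl12a read 547.1, 542.4 and 524.5 in the cyp1a-high arrays, against 780.0, 921.0 and 899.5 in the cyp1a-low arrays (log2 -0.67, SE 0.09, limma adjusted p = 0.00555), and its dimmer probe set gave -0.46 and did not pass (adjusted p = 0.0991). Neither gene's groups overlapped. The gene ackr3b, a scavenger receptor that removes Cxcl12, rose (log2 0.54, SE 0.10, limma adjusted p = 0.0287). It was chosen for mention after its values were seen. Its signals were 565.5, 800.5 and 665.0 in the cyp1a-high arrays, against 401.0, 475.5 and 494.9 in the cyp1a-low arrays. In the cyp19a1b-low arrays ackr3b did not pass (log2 0.33, limma adjusted p = 0.287). The chemokine receptor gene cxcr4b did not pass in the cyp19a1b-high arrays (log2 0.04, limma adjusted p = 0.973).

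The chemokine gene ccl27a rose and was dim in the cyp1a-low arrays. It read 172.9, 176.8 and 163.2 in the cyp1a-high arrays, against 7.5, 35.3 and 35.7 in the cyp1a-low arrays. The groups were well apart, and the difference of 4.71-fold on the log2(signal + 16) scale understates the ratio at so low a signal (log2 2.24, SE 0.25, limma adjusted p = 0.00112). A second chemokine gene, ccl44, read 356.7, 383.1 and 444.4 in the cyp1a-high arrays, against 178.7, 204.9 and 225.0 in the cyp1a-low arrays (log2 0.91, SE 0.11, limma adjusted p = 0.00211). The collagenase gene mmp13a, which is expressed in leukocytes and in wounded tissue, read 415.3, 237.4 and 199.0 in the cyp1a-high arrays, against 186.8, 155.4 and 89.4 in the cyp1a-low arrays (log2 0.89, SE 0.14, limma adjusted p = 0.0155). Its groups did not overlap. In all, 2 of 15 myeloid and immune genes rose (ccl27a and mmp13a) and 2 fell (cxcl12a and cxcl12b), with a list median of 0.04. Passing members made up 26.7% of the list, where 0.903% of all probe sets passed. The chemokine gene ccl25b, on the same list, gave 0.04 and did not pass (adjusted p = 0.936). The summed signal of that list was 8642 to 10209 in the cyp1a-high arrays and 7727 to 11130 in the cyp1a-low arrays, and another probe set annotated to mpx, with the same cluster number, gave -0.44 and did not pass (adjusted p = 0.321).

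Of 14 vascular and coagulation genes, klf2b rose and plvapb and f13a1b fell (21.4%, where 0.903% of all probe sets passed), with a list median of -0.03. The transcription factor gene klf2b read 835.4, 812.2 and 765.9 in the cyp1a-high arrays, against 392.4, 447.1 and 465.7 in the cyp1a-low arrays (log2 0.87, SE 0.10, limma adjusted p = 0.00164). The gene plvapb, which encodes a protein of endothelial diaphragms, read 551.3, 558.6 and 486.5 in the cyp1a-high arrays, against 1012.5, 927.1 and 869.3 in the cyp1a-low arrays (log2 -0.80, SE 0.09, limma adjusted p = 0.00112). The gene f13a1b, for the A subunit of coagulation factor XIII, read 310.3, 254.3 and 248.9 in the cyp1a-high arrays, against 503.4, 448.6 and 437.0 in the cyp1a-low arrays (log2 -0.74, SE 0.10, limma adjusted p = 0.00555). The groups overlapped for none of these 3. Members that did not pass by limma included klf2a, a relative of klf2b (0.29, adjusted p = 0.326), esm1 (0.64, adjusted p = 0.159), kdrl (-0.04), tie1 (-0.02) and fli1 (-0.20). The summed signal of the list was 10945 to 12949 in the cyp1a-high arrays and 11163 to 13008 in the cyp1a-low arrays.

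Further falls included spon2b, a secreted matrix protein gene of the spondin family, with 366.4, 425.7 and 418.2 in the cyp1a-high arrays, against 671.9, 741.6 and 713.5 in the cyp1a-low arrays (log2 -0.79, SE 0.09, limma adjusted p = 0.00171). The alpha-arrestin gene arrdc2 read 412.6, 568.7 and 605.6 in the cyp1a-high arrays, against 808.6, 860.3 and 788.2 in the cyp1a-low arrays (log2 -0.63, SE 0.11, limma adjusted p = 0.0262). Neither overlapped between the groups. No cardiac gene passed of 9 tested, with a list median of -0.12, and the ventricular myosin gene myh7 gave -0.32 (adjusted p = 0.125).

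Of the estrogen-responsive genes, 2 could be tested besides cyp19a1b, which chose the arrays. The list held 22 genes, 13 with a probe set, and 10 of these were too dim. The fall of f13a1b, above, was the only one that passed, and the lysosomal protease gene ctsd gave 0.02 (adjusted p = 0.956). The arrays thus measure too few such genes to describe the estrogen response of the cyp19a1b-high arrays beyond the marker.

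Genes induced by glucocorticoids, heat shock and cell stress gave the largest number of passing members of any list that was tested, but not the largest share. Passing members made up 40% of the 5 AHR genes, 50% of the 2 estrogen-responsive genes and 26.7% of the 15 myeloid and immune genes. Of 28 tested, 7 rose and none fell (25%, where 0.662% of all probe sets rose). A positive difference was seen in 23, and the list median was 0.30, against -0.01 over all probe sets. How many of all probe sets were positive in the cyp19a1b-high arrays was not counted. In the cyp19a1b-low arrays 14 of the 28 rose and none fell, where 1.49% of all probe sets rose, and the list median there was 0.47. These rises are therefore not particular to the cyp19a1b-high arrays. The cochaperone gene fkbp5, a glucocorticoid receptor target, read 1974.2, 2163.4 and 796.2 in the cyp1a-high arrays, against 1182.9, 1405.5 and 508.0 in the cyp1a-low arrays. Both arrays of the second letter B pair were low, so the groups overlapped, but the pairs agreed closely at 0.73, 0.62 and 0.63 (log2 0.66, SE 0.08, limma adjusted p = 0.00206). The early response gene fosab, a subunit of the AP-1 transcription factor, read 876.2, 734.9 and 564.6 in the cyp1a-high arrays, against 569.8, 427.1 and 147.1 in the cyp1a-low arrays. The groups overlapped by a small margin. Its log2 difference was 1.07 (SE 0.19, limma adjusted p = 0.025), with pair values of 0.61, 0.76 and 1.83, and without either array of the second letter B pair it was 0.68. Its other 3 probe sets gave 1.04, 0.76 and 0.89 and did not pass.

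The calls of the remaining 5 each depended on single pairs, since leaving out either array of a pair takes that pair out of the estimate. For hsp90aa1.2 this refers to the brighter of its probe sets. The gene hsp70.3, an inducible chaperone, read 342.4, 280.6 and 296.8 in the cyp1a-high arrays, against 220.4, 193.9 and 154.9 in the cyp1a-low arrays (log2 0.66, SE 0.13, limma adjusted p = 0.0351). The chaperone gene hsp90aa1.2 rose by 0.56 (adjusted p = 0.0234) and by 0.73 in its second probe set, and the chaperone partner gene dnajb1b rose by 0.59 (adjusted p = 0.0287). The second probe set of hsp90aa1.2 passed in 17 of 19 alternative fits that kept the cyp1a grouping, with log2 differences of 0.68 to 0.77. The AP-1 gene junbb rose by 0.55 (adjusted p = 0.0287), and pck1, the rate-limiting enzyme gene of gluconeogenesis, rose by 0.65 (adjusted p = 0.0477). Of the same kinds of genes, jun (-0.30), junba (0.29), hspa8 (0.05) and hsp90aa1.1 (-0.02) did not pass. Leaving out TCDD 3 or its pair E2+TCDD 3 ended the call of hsp70.3 (log2 0.55), of the brighter probe set of hsp90aa1.2 (0.46), of junbb (0.47) and of pck1 (0.47). Leaving out E2 1 or its pair E2+TCDD 1 ended that of dnajb1b (0.47) and pck1 (0.59), and leaving out E2+TCDD 1 ended that of junbb (0.52). Members that did not pass included ier2a (0.59, adjusted p = 0.0515), klf9 (0.46, adjusted p = 0.0589) and the neuronal early response gene npas4a (0.82, adjusted p = 0.385), whose pair values were 0.04, 0.24 and 2.17. Each of them passed when an array of certain pairs was left out: npas4a without E2 1 or E2+TCDD 1, ier2a without E2 1 (0.60), DMSO 3 or E2 3 (0.73), and klf9 without any of these 4 (0.51 without a letter C array and 0.56 without an array of the first letter B pair).

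**Figure D2:**
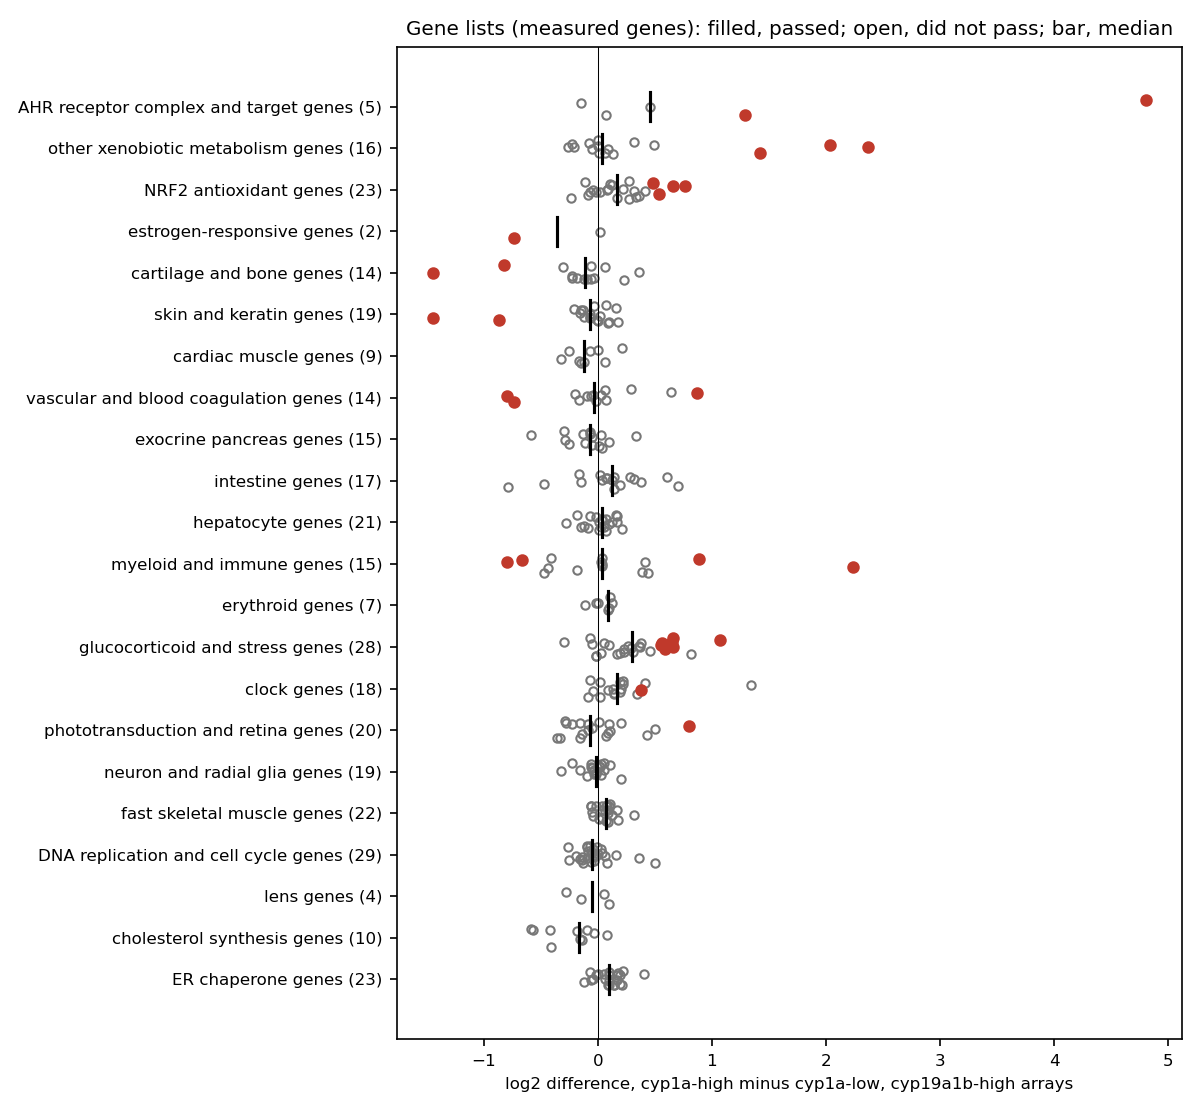
Log2 difference, cyp1a-high minus cyp1a-low, of each tested member of the 22 gene lists in the cyp19a1b-high arrays (horizontal), filled where a member passed, with a bar at each list's median and the number tested in brackets. Most members lie near 0, and the glucocorticoid and stress list has its median at 0.30 and 7 members that passed, all to the right of 0.

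A single clock gene passed of 18 tested (5.56%, where 0.903% of all probe sets passed). It was bhlhe40, a repressor gene of the circadian loop, with 4082.1, 3919.5 and 3556.4 in the cyp1a-high arrays, against 3325.4, 3073.5 and 2523.0 in the cyp1a-low arrays (log2 0.38, SE 0.08, limma adjusted p = 0.0477). It missed the threshold without either array of either letter B pair, at 0.39 without the first pair's arrays and 0.32 without the second's. The list median was 0.16, against -0.01 over all probe sets. Of the 18, 15 were positive, a count with the same limit as in the stress list. The light-induced clock gene per2 was split between pairs. It read 829.1, 700.4 and 195.7 in the cyp1a-high arrays, against 169.9, 161.4 and 223.8 in the cyp1a-low arrays. The letter C pair and the first letter B pair, which share their numbers, differed by 2.18 and 2.01, and the second letter B pair by -0.18. Over all 3 pairs per2 did not pass (log2 1.34, SE 0.34, limma adjusted p = 0.125). Without TCDD 3 it gave 2.10 (limma adjusted p = 1.93e-08), and without E2+TCDD 3 also 2.10 (adjusted p = 1.04e-08). Both fits rest on the letter C and first letter B pairs alone. Those pairs may hold the same RNA, so these p-values may be too small. In the cyp19a1b-low arrays the pair values of per2 were 2.38, 2.43 and -0.42, with the second letter B pair again apart from the other pairs. Whether the number ranges differ in this respect was not tested.

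In the cyp19a1b-high arrays, the digestive genes alpi.2 and amy2a also had a second letter B pair apart from the other pairs. The intestinal alkaline phosphatase gene alpi.2 read 266.6, 295.7 and 272.6 in the cyp1a-high arrays, against 595.3, 758.6 and 261.8 in the cyp1a-low arrays. The array titled TCDD 3 alone among the cyp1a-low arrays was as low as the cyp1a-high arrays. The log2 difference was -0.79 (SE 0.21, limma adjusted p = 0.139) over the 3 pairs, and -1.21 without TCDD 3 (adjusted p = 2.33e-05) or without E2+TCDD 3 (adjusted p = 2.03e-05). The pancreatic amylase gene amy2a read 342.5, 393.8 and 501.9 in the cyp1a-high arrays, against 904.7, 862.8 and 302.1 in the cyp1a-low arrays. Its log2 difference of -0.59 did not pass (limma adjusted p = 0.551), and it was -1.23 without TCDD 3 (adjusted p = 7.03e-06) or without E2+TCDD 3 (adjusted p = 7.62e-06). For both genes the fits without an array of the second letter B pair carry the limit given for per2. In the cyp19a1b-low arrays the second letter B pair did not stand apart in this way, with pair values of -1.40, -0.98 and -0.50 for alpi.2 and -0.63, -0.14 and -0.78 for amy2a.

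In the exocrine pancreas list none of 15 members passed, and the list's median log2 difference was -0.55 in the letter C pair, -0.44 in the first letter B pair and 0.70 in the second. The summed signal of the list was 34347 to 42266 in the cyp1a-high arrays and 21575 to 52678 in the cyp1a-low arrays. The lipase gene cel.1 gave -0.30 over all pairs. It passed by limma at -0.49 without TCDD 3 (adjusted p = 0.0494) or without E2+TCDD 3 (adjusted p = 0.0484), with the same limit. The elastase gene cela1.5 had pair values of -0.90, -0.12 and 2.02. No member of the intestine list passed in its main probe set of 17 tested, and the list's median was 0.19, -0.14 and 0.31 in the 3 pairs, though a second probe set of the tetraspanin relative tm4sf4 passed (log2 0.85), with its main probe set at 0.70 (adjusted p = 0.073). The peptide transporter gene slc15a1b gave 0.61 (adjusted p = 0.393) and passed at 0.94 without DMSO 3 or E2 3.

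**Figure D3:**
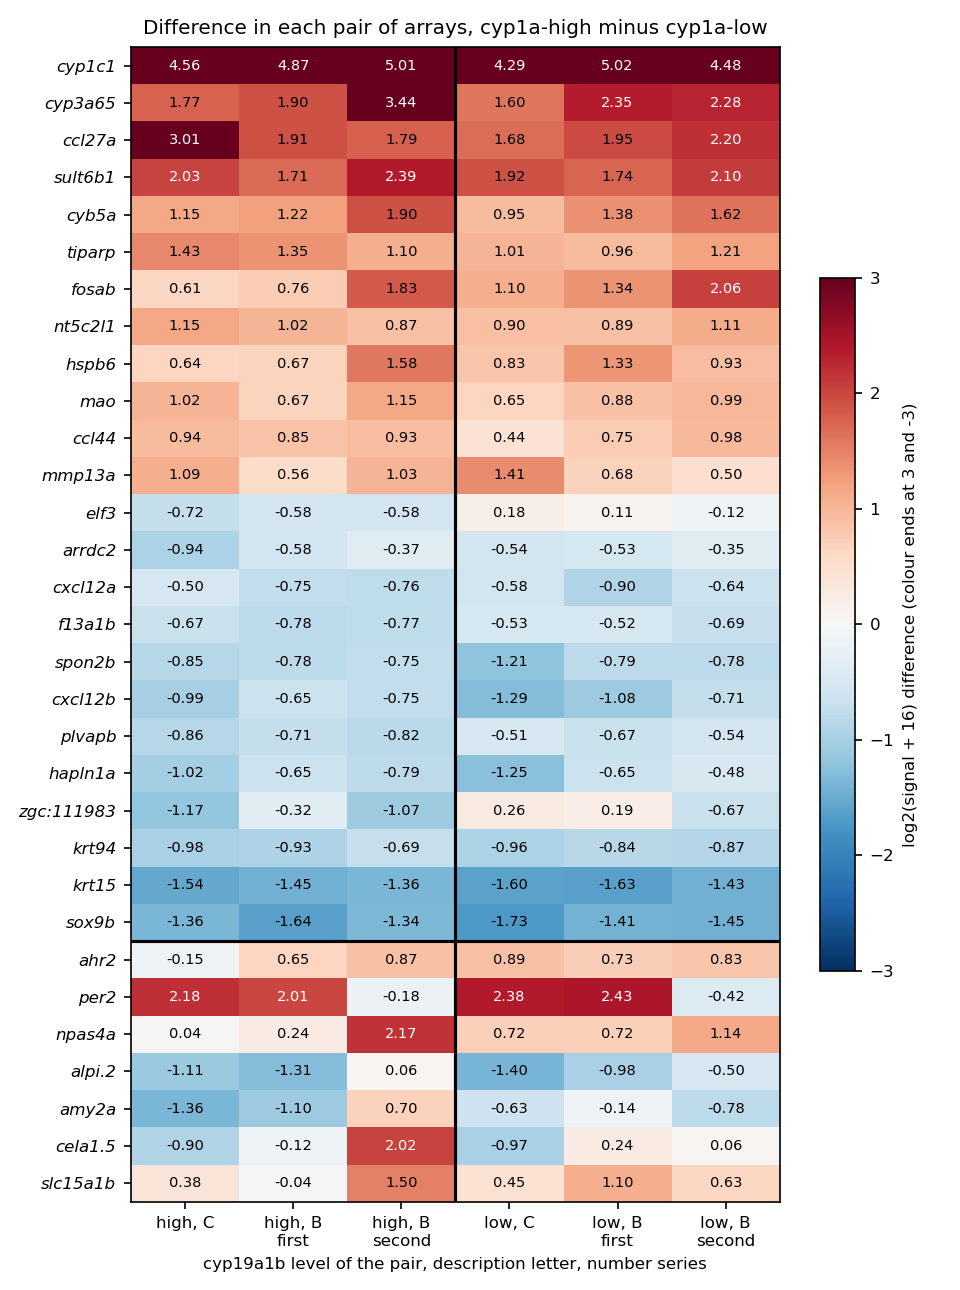
Log2(signal + 16) difference, cyp1a-high minus cyp1a-low, of named genes (down the page) in each pair of arrays, the 3 pairs of cyp19a1b-high arrays left of the 3 pairs of cyp19a1b-low arrays, with red for higher and blue for lower. Above the line stand genes that passed in the cyp19a1b-high arrays, such as krt15 with -1.54, -1.45 and -1.36, and below it genes that did not pass, such as per2 with 2.18, 2.01 and -0.18.

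Most other tissue lists showed no call. None passed of 21 hepatocyte genes (median 0.04), 7 erythroid genes (0.09), 19 neuron and radial glia genes (-0.02), 22 fast skeletal muscle genes (0.07), 29 DNA replication genes (-0.05), 4 lens genes (-0.05), 10 cholesterol synthesis genes (-0.17) and 23 ER chaperone genes (0.10), by limma with the adjusted p over all probe sets. By unadjusted p under 0.05, 1155 of all 11623 probe sets would pass. Of 20 phototransduction and retina genes, the green cone opsin gene opn1mw2 rose (5%, where 0.903% of all probe sets passed) and the list median was -0.07. It read 2274.0, 1947.1 and 2110.5 in the cyp1a-high arrays, against 1333.7, 1379.5 and 936.4 in the cyp1a-low arrays, with no overlap (log2 0.80, SE 0.11, limma adjusted p = 0.00544). The summed signal of that list was 76003 to 81773 in the cyp1a-high arrays and 79772 to 83964 in the cyp1a-low arrays.

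The 6 cyp19a1b-low arrays, which the choice of members left out, gave a check of the same differences in other arrays. Split by the same cyp1a threshold, they are the arrays titled TCDD 1, E2 2 and E2+TCDD 2 (cyp1a-high) and DMSO 1, DMSO 2 and TCDD 2 (cyp1a-low), paired by letter and number range as above. There, 217 of 11623 probe sets passed (1.87%), 173 higher (1.49%) and 44 lower (0.379%). The share that passed in both sets of arrays was 84 probe sets, all with the same sign, which is 80% of the 105 and 38.7% of the 217. These were 69 of the 77 rises but only 15 of the 28 falls. In each pair of the cyp19a1b-low arrays too, the cyp1a-high array carries the higher number. The check thus does not separate cyp1a state from number order.

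All 77 rises of the cyp19a1b-high arrays were also positive in the cyp19a1b-low arrays, where 47.1% of all probe sets were positive, and 75 were positive in all 3 of those pairs, where 15.3% of all probe sets were. Of the 28 falls, 24 were negative in the cyp19a1b-low arrays (52.9% of all probe sets), and 22 in all 3 pairs (17.3%). The median log2 difference of the 77 was 0.66 in the cyp19a1b-high arrays and 0.68 in the cyp19a1b-low arrays. That of the 28 was -0.63 in the cyp19a1b-high arrays and -0.48 in the cyp19a1b-low arrays. The 105 were chosen by their test in the cyp19a1b-high arrays, so only the values from the cyp19a1b-low arrays are independent of that choice. Across all probe sets the differences in the 2 sets of arrays had a Pearson correlation of 0.525, a description across probe sets that are not independent of each other and share pair and number range.

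**Figure D4:**
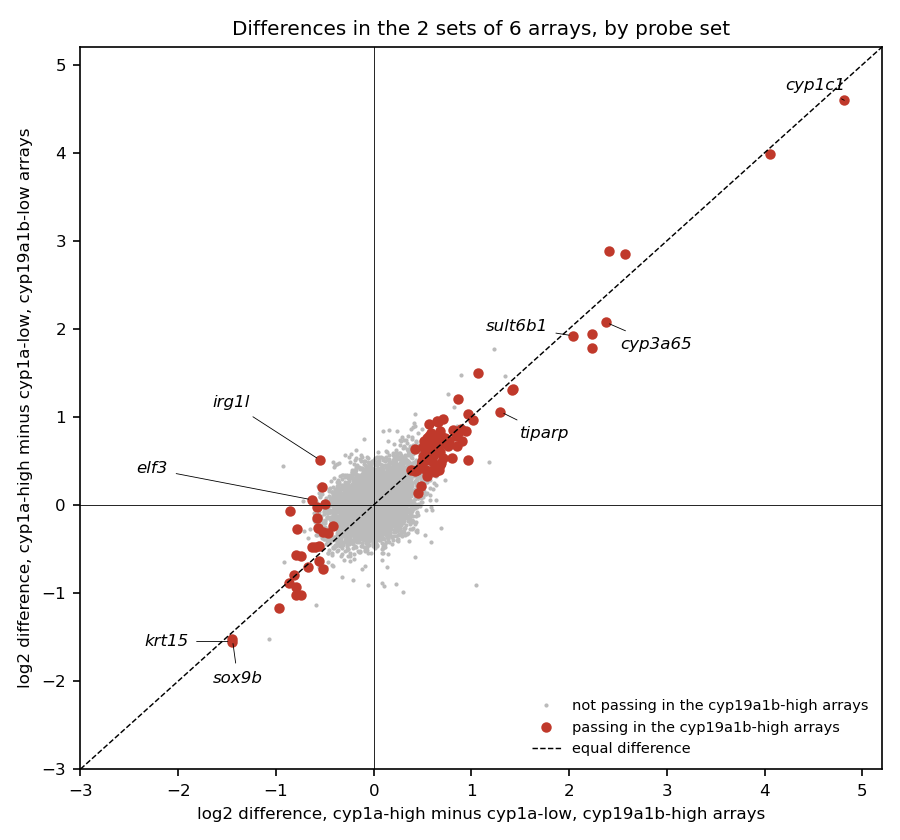
Log2 difference, cyp1a-high minus cyp1a-low, of each probe set in the cyp19a1b-high arrays (horizontal) and in the cyp19a1b-low arrays (vertical), on the log2(signal + 16) scale, with the 105 probe sets that passed in the cyp19a1b-high arrays in red and the line of equal difference dashed. All 77 rises lie above 0 on the vertical axis, as do 4 of the 28 falls, among them irg1l and elf3.

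The leading genes had close values in both sets. The log2 difference of cyp1c1 was 4.81 in the cyp19a1b-high arrays and 4.59 in the cyp19a1b-low arrays, which leaves a difference of 0.22 (95% interval -0.19 to 0.63). For krt15 the difference between the sets was 0.10 (-0.14 to 0.34), for sox9b 0.08 (-0.23 to 0.39), for sult6b1 0.12 (-0.18 to 0.43), and for tiparp 0.23 (-0.04 to 0.50). For cyp3a65 it was 0.30, with a wider interval of -0.41 to 1.01. The receptor gene ahr2 passed in the cyp19a1b-low arrays (0.82, limma adjusted p = 0.000799) and not in the cyp19a1b-high arrays (0.46), but the difference of -0.36 had an interval that includes 0 (-0.78 to 0.06).

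No probe set passed the test of the difference itself. In the fit to all 12 arrays, 0 of 11623 had a limma adjusted p under 0.05 (0%) for a cyp1a-related difference that depended on the cyp19a1b state, 429 had an unadjusted p under 0.05, and the smallest adjusted p was 0.998. Of the 105 probe sets, 11 had an unadjusted p under 0.05. The median standard error of this difference was 0.17, against 0.12 for the difference within the cyp19a1b-high arrays, so that small dependences were not detectable with 3 arrays in each state.

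The 5 genes with the smallest unadjusted p are given as values that did not pass (adjusted p = 0.998 for each). For irg1l the log2 difference was -0.55 in the cyp19a1b-high arrays and 0.51 in the cyp19a1b-low arrays, a gap of -1.06 (95% interval -1.49 to -0.62). In the cyp19a1b-low arrays its signals were 831.4, 856.8 and 194.9 in the cyp1a-high arrays, against 392.8, 622.6 and 191.7 in the cyp1a-low arrays. For elf3 it was -0.63 in the cyp19a1b-high arrays and 0.06 in the cyp19a1b-low arrays, a gap of -0.68 (-1.01 to -0.35). The gaps were -0.73 for gemin7, a subunit gene of the complex that assembles spliceosomal particles (-1.08 to -0.38), 0.56 for smim13, a small membrane protein gene (0.28 to 0.84), and -0.85 for the calcium pump gene atp2a2a (-1.29 to -0.41). That of atp2a2a comes from its dimmer probe set, and the brighter one gave -0.12 in the cyp19a1b-high arrays and -0.24 in the cyp19a1b-low arrays, a gap of the opposite sign. The intervals are not adjusted for the choice of the smallest p among 11623. Beyond these, zgc:111983 gave -0.85 in the cyp19a1b-high arrays and -0.07 in the cyp19a1b-low arrays, a gap of -0.78 (-1.37 to -0.19), and gstp1.2 had a gap of 0.27 (0.07 to 0.46).

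**Figure D5:**
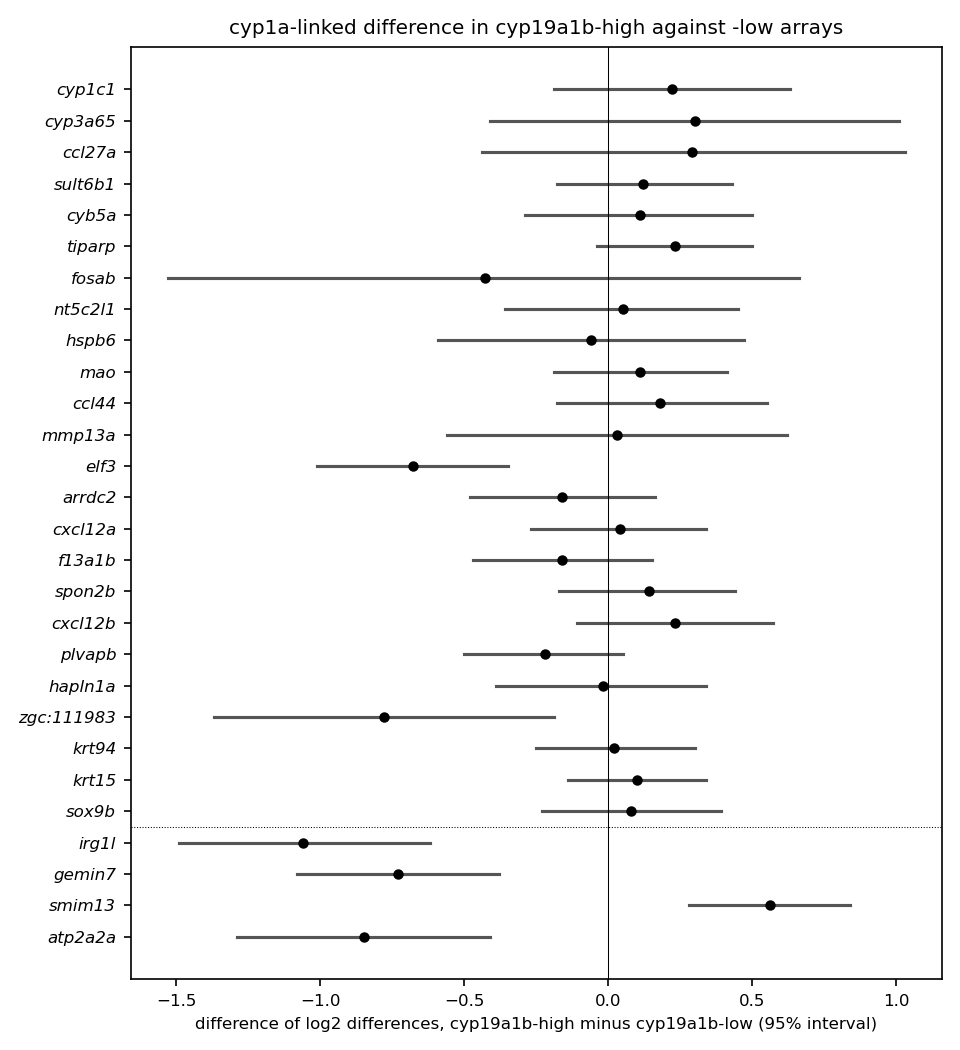
Difference between the log2 differences, cyp19a1b-high minus cyp19a1b-low arrays, with its 95% interval (horizontal), for the 12 largest rises and 12 largest falls in the cyp19a1b-high arrays and, below the dotted line, the genes with the smallest p of this difference apart from elf3. Above the line all intervals but those of elf3 and zgc:111983 include 0, and the 4 below it do not, although none passed after adjustment.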

How the data were processed

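Expression was measured on 12 single-colour Affymetrix zebrafish arrays. The authors deposited a linear intensity for each probe set, the MAS5 signal. The submitters' processing notes name Affymetrix Expression Console as the tool, without a version. Trimmed means of the arrays, with 2% cut at each end, lay within 0.00225% of their median, so no further scaling was applied before log2(signal + 16). Arrays carry no counts, so no depth is given, and the number of arrays limits the precision.

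Of 15617 probe sets, 115 controls were left out. Symbols came from GEO's platform annotation and were matched through Entrez gene IDs in RefSeq for 10711 probe sets, which changed 1 symbol. A single symbol was found for 10795 probe sets, several for 135 and none for 4572. A gene with several probe sets enters a list once, through the brightest of them. No positions are given, since no genome build is named. A filter at the 25th percentile of the mean log2 signal of 12 arrays kept 11626 probe sets, and counts leave out the 2 marker probe sets and the mpx probe set of the cyp1a cluster.

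Differences were tested with limma 3.58.1 in R 4.3.3 (lmFit, then eBayes with a variance trend), on cyp1a state plus 3 pairs by description letter and number range, two-sided, at a Benjamini-Hochberg adjusted p under 0.05, adjusted over the 11626 probe sets. The same model was fitted to the 6 cyp19a1b-low arrays, and to all 12 for the difference between both sets. The deviations of paired arrays from their group means correlated at 0.63 in the letter C pair, 0.393 in the first letter B pair and 0.435 in the second.

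The members, the 22 gene lists (565 genes) and the tests were chosen with earlier results of these data known, and a call is no support independent of those. Named genes are the 12 largest rises and falls among passing probe sets with 1 symbol and the same sign in 3 pairs, the tested AHR and estrogen list genes, passing members of other lists with up to 3 that did not pass, and the 5 smallest p of the difference between sets. Alternatives were pseudocounts of 1 and 64, no filter and a filter at the 50th percentile, quantile normalisation, median centring, no pair block, the replicate number as a block, no variance trend, array weights, 1 spread over 12 arrays, arrays of the same number averaged, the first number range alone, grouping by title, and leaving out each array.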

Additional observations from a re-analysis of the deposited data

How the results depend on the processing

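The count of 105 probe sets that passed within the cyp19a1b-high arrays was 67 with no filter on dim probe sets, 163 with median centring, 12 with no pair block and 12 with no variance trend. With the replicate number of the titles as a block, which joins the letter B pairs no differently than the letter alone, it was 41. Grouping the same 6 arrays by TCDD in the title, with the letter as a block, gave 0 by limma, with 643 at an unadjusted p under 0.05. In letter B, both arrays with TCDD in the title lie in the second number range and both without it in the first. Title and number range thus cannot be told apart there, which also limits the sign changes by title given below. Leaving out each array, which takes its whole pair out of the estimate, gave 114 to 149, with 27 to 72 falls. The first number range alone gave 76 rises and 71 falls. The same arrays by title reversed the sign of fosab (-0.40), hspb6 (-0.04), fkbp5 (-0.71), pck1 (-0.14), junbb (-0.07) and bhlhe40 (-0.04), none of them passing. In all, 24 of the 105 had the opposite sign by title, and none had it under any other setting run. Apart from the title grouping, 9 of the 105 passed in every setting that tested them. The brighter probe set of cyp1c1, those of sult6b1, tiparp, krt15 and sox9b and 1 unnamed one were tested in all 19 settings, while the dimmer one of cyp1c1 and 1 unnamed one were tested in 18 and that of ccl27a in 17. The count of 217 in the cyp19a1b-low arrays was 27 with no pair block, 142 with the replicate block, 29 with no variance trend and 566 with arrays of the same number averaged, and leaving out each array gave 59 to 303, with 65 without DMSO 2 and 59 without E2 2. The count of 0 for the difference between both sets was 1 with a pseudocount of 64, and 0 on leaving out each array. The cause of these changes was not tested. Dim probe sets limit what can be said of the estrogen list and of ccl27a.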
